A study of Homo sapiens with 12 samples.

Results

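The subject is a set of 35 genes of homologous recombination and of the Fanconi pathway, taken by their gene symbols from tables that list 57755 gene identifiers. All 35 were among the 15610 genes tested, and 30 reached 1 FPKM in every library. Polyadenylated RNA was sequenced from KYSE510 and TE7, a pair of human esophageal squamous carcinoma lines, in 12 libraries, 1 for each line and condition. The conditions were THZ1 at 50 nM for 2, 4, 6 and 12 h, THZ1 at 200 nM for 6 h, and DMSO, the solvent. THZ1 is a covalent inhibitor of CDK7 that also binds CDK12 and CDK13, all of them kinases of the RNA polymerase II machinery. The labels give no engineered change in either line, and the culture medium was RPMI-1640 for KYSE510 but DMEM for TE7. Each DMSO library is titled 0 h but has a time label of 12 h, and no other DMSO library was given, so hours of treatment cannot be told apart from hours in culture or handling. With 1 library per line and condition, the lines stood in as the replicates (n = 2) of a condition. The p-values therefore reflect variation among the libraries at hand and not among separate cultures of a line.

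Homologous recombination copies the sister chromatid to mend a broken chromosome. Nucleases first trim the broken ends (resection), then BRCA1, PALB2 and BRCA2 act on the exposed single strand with the help of a group of paralogs, and helicases and nucleases finally undo the joined molecules. The Fanconi core complex marks FANCD2 and FANCI with ubiquitin where the strands of DNA are crosslinked, which passes the lesion to the same machinery. In other human cells, loss of CDK12 is known for lowering long genes of the DNA damage response, BRCA1 among them, which is why gene span is set beside the changes here.

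Genes with steep falls over the hours at 50 nM and the genes that moved least are shown here by the DNA around their annotated start sites. Of the 26 genes whose length in RefSeq was within 10% of the span in the tables, FANCE, EME1 and XRCC2 had the steepest slopes, and NABP2 and FANCA the shallowest. BRCA1, with the steepest slope of all 35 at -0.27 log2 units per hour, and EXO1 and MUS81, both at -0.21 and steeper than XRCC2 at -0.18, were outside that length limit and are not printed. The windows run from 250 bases before to 50 bases after the annotated start (RefSeq, GRCh38.p14), 5′ to 3′ on the gene's strand. Capitals mark matches, on either strand, to the letters searched: the E2F core TTCCCGC or its form TTGGCGC, the cell cycle homology region core TTTGAA, and the CCAAT box.
FANCE, chr6:35452088-35452387, plus strand: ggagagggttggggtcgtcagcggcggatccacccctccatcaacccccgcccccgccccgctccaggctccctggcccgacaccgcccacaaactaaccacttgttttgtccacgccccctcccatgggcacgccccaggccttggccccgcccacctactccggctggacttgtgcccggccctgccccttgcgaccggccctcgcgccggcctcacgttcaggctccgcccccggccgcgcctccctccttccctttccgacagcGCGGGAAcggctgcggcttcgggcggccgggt
EME1, chr17:50372979-50373278, plus strand: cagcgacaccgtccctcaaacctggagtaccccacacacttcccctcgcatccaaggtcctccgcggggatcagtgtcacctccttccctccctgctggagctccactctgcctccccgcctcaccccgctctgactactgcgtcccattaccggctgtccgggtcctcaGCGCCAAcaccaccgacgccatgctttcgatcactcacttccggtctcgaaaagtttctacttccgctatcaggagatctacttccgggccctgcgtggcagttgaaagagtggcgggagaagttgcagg
XRCC2, chr7:152676092-152676391, minus strand: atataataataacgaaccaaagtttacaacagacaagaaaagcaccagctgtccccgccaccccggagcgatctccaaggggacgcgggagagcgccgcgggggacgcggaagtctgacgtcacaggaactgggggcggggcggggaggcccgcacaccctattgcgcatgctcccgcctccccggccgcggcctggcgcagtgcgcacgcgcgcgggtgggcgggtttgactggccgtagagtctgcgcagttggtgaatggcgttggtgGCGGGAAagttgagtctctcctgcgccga
NABP2, chr12:56224092-56224391, plus strand: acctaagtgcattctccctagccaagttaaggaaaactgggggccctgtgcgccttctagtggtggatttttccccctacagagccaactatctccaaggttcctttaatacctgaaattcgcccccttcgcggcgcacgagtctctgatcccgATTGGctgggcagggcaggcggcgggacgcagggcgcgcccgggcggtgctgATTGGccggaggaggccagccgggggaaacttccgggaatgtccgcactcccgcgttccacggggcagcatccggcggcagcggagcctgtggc
FANCA, chr16:89816598-89816897, minus strand: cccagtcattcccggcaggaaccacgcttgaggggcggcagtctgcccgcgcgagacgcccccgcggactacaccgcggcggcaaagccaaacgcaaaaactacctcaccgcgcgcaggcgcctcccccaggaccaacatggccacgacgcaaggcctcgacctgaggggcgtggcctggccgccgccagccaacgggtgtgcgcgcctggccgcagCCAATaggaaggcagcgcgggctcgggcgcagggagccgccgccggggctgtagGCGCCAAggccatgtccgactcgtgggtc
Each of FANCE, EME1 and XRCC2 held 1 E2F form in its window, while the RefSeq windows of BRCA1, EXO1 and MUS81 held none. RefSeq lengths of these last 3 were 1.55, 0.89 and 0.76 of their spans in that order. Their windows may therefore not lie at the start of the gene measured. NABP2 held 2 CCAAT boxes, and FANCA held 1 CCAAT box and 1 E2F form, with no overlap between matches in these 5 windows. RefSeq windows were found for 33 of the 35 genes, with MRE11A matched as MRE11; NBN and FANCI had none. Either E2F form stood in 15 of the 33 windows (45.5%), against 12.3% of 15843 promoters of protein-coding genes. Those promoters were not limited to the genes tested here, among which the share was not computed. TTCCCGC stood in 13 (39.4%) against 8.60%, and TTGGCGC in 3 (9.09%) against 4.19%. The CCAAT box stood in 15 of 33 (45.5%) against 36.4%, and the cell cycle core in 3 of 33 (9.09%) against 12.1%. The median slope was -0.15 log2 units per hour in the 15 genes with an E2F form, and -0.12 in the 18 without, with ranges that overlapped almost wholly. The shares and medians over the 33 windows include genes outside the length limit, among them BRCA1, the steepest of the 18. A match is a description of letters in these windows.

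Before any comparison, both libraries labelled KYSE510 DMSO and KYSE510 200 nM stood apart from their line. Among the 4 KYSE510 libraries at 50 nM, 0 genes were at or above 8 FPKM in one and under 0.3 FPKM in another. The library labelled KYSE510 DMSO differed from them in 127 to 138 such genes and the one labelled KYSE510 200 nM in 82 to 131. These 2 libraries differed from each other in 158 such genes and from the TE7 libraries in 125 to 196. Between the lines, KYSE510 at 50 nM differed in 64 to 117 such genes from TE7 in DMSO or at 50 nM and in 101 to 146 from TE7 at 200 nM, which itself differed from the other TE7 libraries in 8 to 16. For comparisons that rest on these 2 libraries, the counts of called genes over the whole set, on the FPKM scale, are therefore given with and without them. Estimates, errors and p-values of single genes in those comparisons are given with them only. The account leads with the 50 nM hours, whose differences use neither, although the limma errors of 12 h against 2 h pool all 12 libraries. Of 10 squamous epithelial markers 9 were at or above 1 FPKM in every library, and of 6 simple epithelial markers 5 were. Their levels were not all alike across the KYSE510 libraries. KRT19 was at 11.0 FPKM in the library labelled DMSO, 0.852 FPKM in that labelled 200 nM and 540 to 692 FPKM at 50 nM. In the same order KRT14 was at 28.7, 2.62 and 449 to 564 FPKM, and KRT7 at 420, 8.17 and 5.18 to 5.44 FPKM. KRT5 differed less, at 1474, 1011 and 1343 to 1879 FPKM. All 4 endothelial markers measured, 5 of 6 leukocyte markers (all but CD68) and, of 6 mesenchymal markers, VIM and COL1A2 were under 1 FPKM throughout. The other 4 mesenchymal markers were not. CDH2 reached 20.0 FPKM in the library labelled KYSE510 200 nM and at most 2.83 FPKM elsewhere. COL3A1 reached 4.21 FPKM in that library and at most 2.17 FPKM elsewhere. In the library labelled KYSE510 DMSO it was FN1 that reached 13.7 FPKM, with at most 1.96 FPKM elsewhere. COL1A1 was at 6.62 to 8.66 FPKM in every KYSE510 library. The part of these markers in the results was not tested. FPKM summed to 383975 to 729515 per library, and the authors' upper 95% bound lay 7.28% to 10.6% above the value in the median gene, which covers counting error only. Whether the authors' estimates used strand is not stated, so reads of overlapping antisense genes cannot be told apart, nor reads that FANCD2 shares with its pseudogenes.

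**Figure D1:**
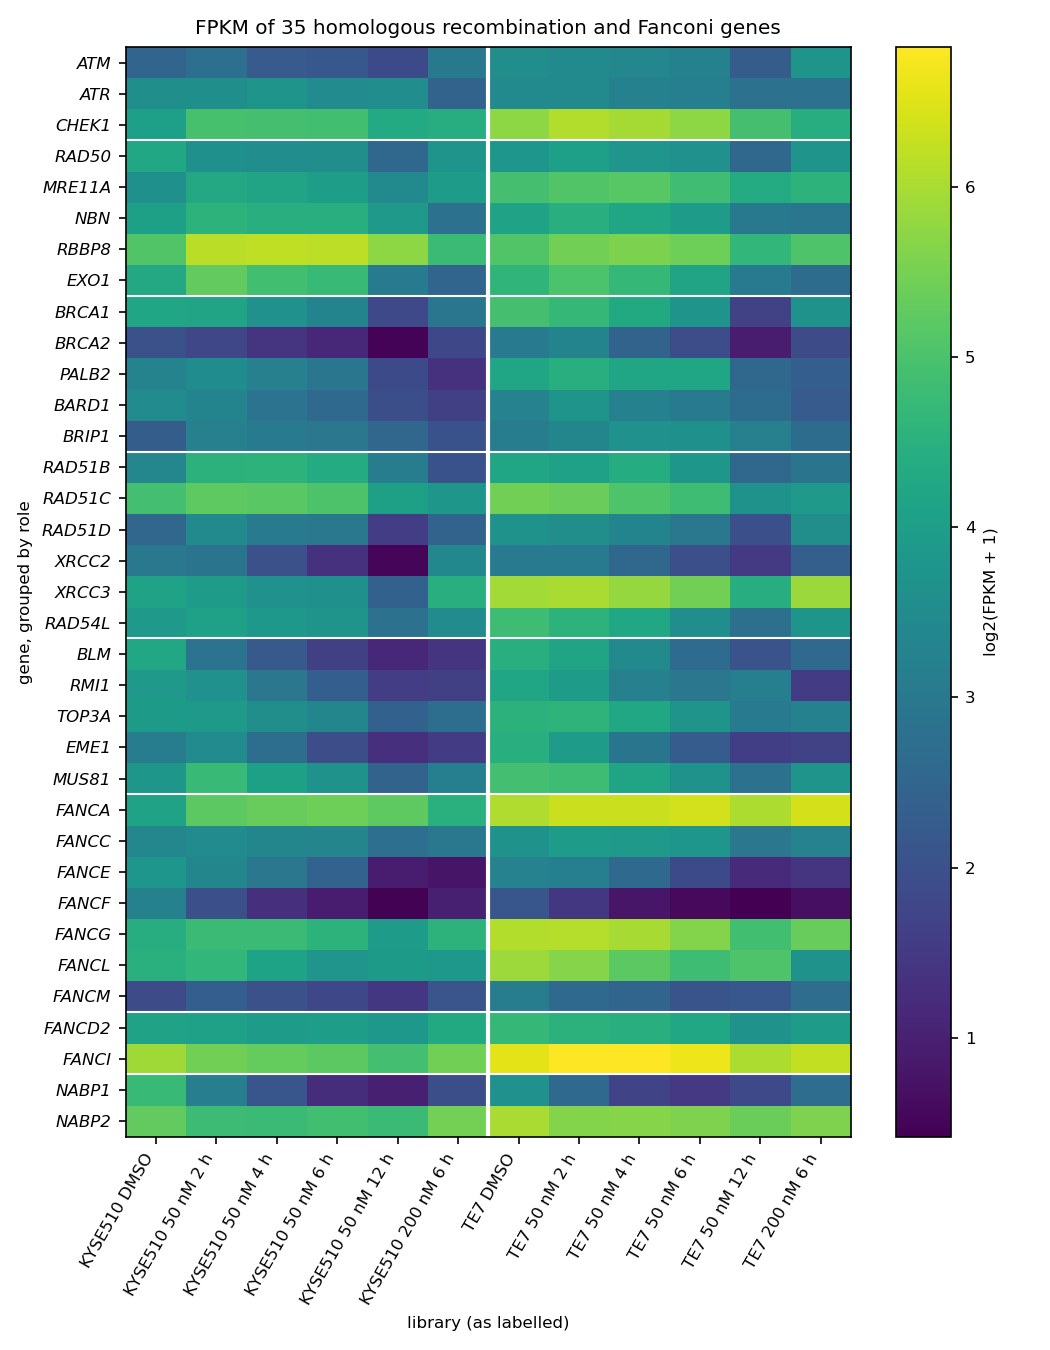
FPKM of the 35 genes, as log2(FPKM + 1) by colour, in the 12 libraries as labelled; rows are grouped by role and columns run from DMSO through the 50 nM hours to 200 nM within each line. The 12 h columns are the darkest of the 50 nM columns for most rows, while FANCA and NABP2 keep one shade across the 50 nM hours.

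With longer exposure to 50 nM THZ1 most of the set fell. At 12 h, 34 of 35 genes in KYSE510 and 35 of 35 in TE7 were below their 2 h library, where 69.7% of all genes in KYSE510 and 72.9% in TE7 were. The median of the set was 38.5% of the 2 h FPKM in KYSE510 and 33.6% in TE7. On the log2(FPKM + 1) scale, which understates changes of low genes, the 12 h against 2 h change had a median of -1.28 over the 35 genes and -0.43 over all genes tested. By limma, calling genes at an adjusted p under 0.05 (Benjamini-Hochberg, all 15610 genes), 24 of the 35 fell and 0 rose, where 20.0% of all genes tested fell and 1.88% rose. The same fit without the 2 libraries that stood apart called 31 lower, where 45.4% of all genes were lower, and the 24 were among them. Both 12 h libraries lay below both 2 h libraries for 26 of the 35 genes, against 40.7% of all genes. The count of 24 rested on single libraries: it was 7 without KYSE510 at 2 h, 4 without TE7 at 2 h, 16 without KYSE510 at 12 h and 10 without TE7 at 12 h. In bulk RNA, fewer cells of a type and less RNA per cell cannot be told apart.

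The slope over 2, 4, 6 and 12 h, from the 8 libraries at 50 nM, was below 0 past the threshold in 31 genes and above 0 in none, where 49.3% of all genes had a falling slope and 10.6% a rising one. Its median was -0.12 log2 units per hour in the set and -0.043 in all genes. ATR, FANCA, FANCL and NABP2 were the 4 genes not called. The FPKM of most genes was lower at 12 h than at 2 h in each line, and rescaling libraries by median of ratios moved the all-gene median of 12 h against 2 h to -0.05 and that of the set to -0.92. On that scale 13 of the 35 were called lower and none higher, where 7.84% of all genes were lower. Lost there were the 12 h against 2 h calls of ATM, BARD1, FANCC, FANCF, FANCG, MRE11A, NBN, RAD50, RAD51B, RMI1 and XRCC2. Of the slopes 24 fell and 2, FANCA and NABP2, rose, where 28.1% of all slopes fell and 26.2% rose. The counts by role that follow are on the FPKM scale, where 20.0% of all genes fell at 12 h against 2 h.

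**Figure D2:**
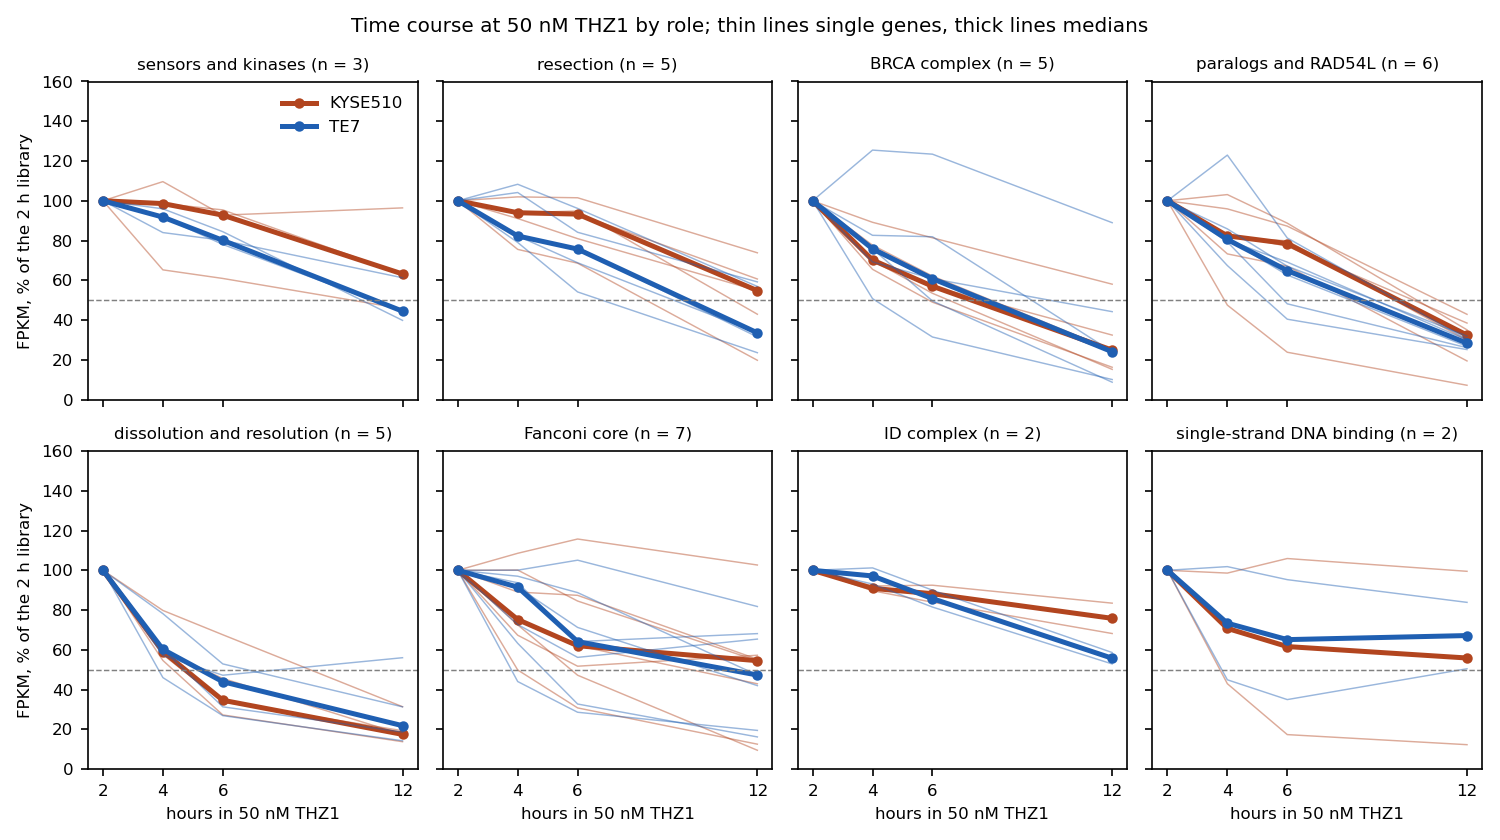
FPKM at 2, 4, 6 and 12 h in 50 nM THZ1 as a percentage of the 2 h library of the same line, in 8 panels by role; thin lines are genes, thick lines the median of the panel, orange KYSE510 and blue TE7, and the dashed line is 50%. The dissolution and resolution genes pass 50% by 6 h in the median, and the panel of FANCD2 and FANCI ends highest in KYSE510.

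Among the sensors and kinases, 1 of 3 fell between 2 h and 12 h. ATM, the kinase that answers double-strand breaks, was at 5.79, 3.78, 3.53 and 2.64 FPKM in KYSE510 and 9.92, 9.51, 8.37 and 3.95 FPKM in TE7 after 2, 4, 6 and 12 h. Its 12 h libraries were below its 2 h libraries in both lines, with a change of -1.02 ± 0.24 (SE; adjusted p = 0.0220). ATR, the kinase that answers single-stranded DNA, was at 11.2, 12.3, 10.4 and 10.8 FPKM in KYSE510 and 10.1, 8.46, 8.06 and 6.17 FPKM in TE7 over the same hours. Its levels overlapped between 12 h and 2 h, and its change of -0.34 ± 0.27 (SE; adjusted p = 0.416) did not pass. CHEK1, the checkpoint kinase downstream of ATR, was at 30.1, 29.7, 28.7 and 19.03 FPKM in KYSE510 and 67.0, 61.5, 52.3 and 29.8 FPKM in TE7 over these hours. CHEK1 was lower at 12 h in both lines without overlap; the change of -0.89 ± 0.36 (SE; adjusted p = 0.115) missed the threshold, while its slope of -0.093 log2 units per hour was called (adjusted p = 0.000483).

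Of the 5 resection genes, 4 fell at 12 h. EXO1, the long-range exonuclease, moved most and was at 37.7, 28.5, 25.9 and 7.45 FPKM in KYSE510 and 31.3, 24.7, 16.9 and 7.37 FPKM in TE7 after 2, 4, 6 and 12 h. Both 12 h libraries of EXO1 were far below both at 2 h, a change of -2.07 ± 0.25 (SE; adjusted p = 0.00288). The MRE11-RAD50-NBN complex tethers and clips broken ends, and its members moved later. RAD50 held 11.5, 10.8, 10.9 and 4.92 FPKM in KYSE510 and 15.4, 12.5, 11.7 and 4.85 FPKM in TE7 over the hours and changed by -1.28 ± 0.24 (SE; adjusted p = 0.00999). MRE11A stood at 18.5, 16.8, 15.0 and 10.1 FPKM in KYSE510 and 33.1, 34.5, 27.8 and 19.6 FPKM in TE7 over the hours and changed by -0.77 ± 0.21 (SE; adjusted p = 0.0356). NBN was at 22.4, 21.1, 20.9 and 13.6 FPKM in KYSE510 and 20.9, 17.2, 14.4 and 7.02 FPKM in TE7 and changed by -1.07 ± 0.27 (SE; adjusted p = 0.0271). In all of these the largest step came between 6 h and 12 h, and MRE11A alone among them overlapped between 12 h in TE7 and 2 h in KYSE510. RBBP8 (CtIP), which starts resection, kept 71.0, 72.4, 72.1 and 52.4 FPKM in KYSE510 and 42.8, 46.3, 41.1 and 24.3 FPKM in TE7 over the hours, and its change of -0.61 ± 0.33 (SE; adjusted p = 0.229) did not pass. RBBP8 was the highest of the resection genes in FPKM at each of these hours in both lines.

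In the BRCA complex, 4 of 5 fell. BRCA1, the ubiquitin ligase subunit that directs repair to recombination, lies at chr17:41196312-41277500 (hg19). Over both lines it had the largest fall of the 35 on the log2(FPKM + 1) scale. BRCA1 gave 16.7, 11.7, 8.93 and 2.53 FPKM in KYSE510 and 24.8, 18.8, 12.3 and 2.16 FPKM in TE7 after 2, 4, 6 and 12 h. Each step was downward in both lines, and at 12 h 15.2% of the 2 h level was left in KYSE510 and 8.71% in TE7, a change of -2.68 ± 0.26 (SE; adjusted p = 0.00203). BARD1, the partner of BRCA1 in the ligase, was at 8.86, 6.22, 5.05 and 2.87 FPKM in KYSE510 and 12.2, 8.45, 7.42 and 5.39 FPKM in TE7 over the hours and changed by -1.20 ± 0.27 (SE; adjusted p = 0.0178). BRCA2, which acts downstream of PALB2, had the lower FPKM, at 2.45, 1.60, 1.20 and 0.397 FPKM in KYSE510 and 8.93, 4.53, 2.81 and 0.899 FPKM in TE7, and changed by -1.84 ± 0.35 (SE; adjusted p = 0.0103). BARD1 and BRCA2 were also lower at every step in both lines without overlap of 12 h and 2 h. PALB2, the bridge between BRCA1 and BRCA2, was at 10.6, 8.27, 6.61 and 2.65 FPKM in KYSE510 and 20.9, 17.3, 17.1 and 5.03 FPKM in TE7 over the hours and changed by -1.77 ± 0.20 (SE; adjusted p = 0.00271). PALB2 in TE7 was level between 4 h and 6 h and lowest at 12 h, and its 12 h and 2 h libraries did not overlap. BRIP1, a helicase bound by BRCA1, was at 8.31, 7.41, 6.77 and 4.83 FPKM in KYSE510 and 9.24, 11.6, 11.4 and 8.22 FPKM in TE7 and did not pass (-0.41, adjusted p = 0.232). In TE7 BRIP1 was higher at 4 h and 6 h than at 2 h; its slope was called lower on the FPKM scale (adjusted p = 0.0300) and was about 0 after median-of-ratios and upper-quartile scaling.

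All 6 genes of the group made up of the paralogs RAD51B, RAD51C, RAD51D, XRCC2 and XRCC3 and of RAD54L fell, with changes of -1.94 to -1.41 on the log2 scale. XRCC2, one of the paralogs, was at 6.34, 3.01, 1.51 and 0.456 FPKM in KYSE510 and 7.32, 4.93, 2.96 and 1.84 FPKM in TE7 after 2, 4, 6 and 12 h and changed by -1.94 ± 0.44 (SE; adjusted p = 0.0195). RAD51D, its partner in the same paralog complex, was at 10.2, 7.51, 6.87 and 1.99 FPKM in KYSE510 and 11.0, 8.90, 6.90 and 2.94 FPKM in TE7 and changed by -1.76 ± 0.35 (SE; adjusted p = 0.0119). RAD51C, shared by both paralog complexes, was the most abundant of them in KYSE510, at 36.7, 35.2, 32.0 and 15.7 FPKM in KYSE510 and 40.1, 32.1, 27.7 and 12.0 FPKM in TE7, and changed by -1.41 ± 0.24 (SE; adjusted p = 0.00760). These 3 were lower at 12 h than at 2 h in both lines with no overlap, and XRCC2 in KYSE510 kept 7.18% of its 2 h level. XRCC3, the partner of RAD51C, was at 14.3, 11.7, 11.5 and 4.27 FPKM in KYSE510 and 63.8, 54.8, 42.8 and 20.4 FPKM in TE7 and changed by -1.57 ± 0.22 (SE; adjusted p = 0.00419). Its lines differed so much that 12 h in TE7 lay above 2 h in KYSE510. RAD51B, the longest gene of the set (chr14:68286496-69196935, hg19), was at 22.1, 22.8, 19.6 and 7.74 FPKM in KYSE510 and 16.0, 19.7, 13.0 and 4.88 FPKM in TE7 and changed by -1.47 ± 0.42 (SE; adjusted p = 0.0404). RAD54L, a translocase of the strand exchange step, was at 16.0, 13.3, 12.3 and 6.15 FPKM in KYSE510 and 22.5, 17.9, 10.8 and 5.87 FPKM in TE7 and changed by -1.51 ± 0.29 (SE; adjusted p = 0.0108). RAD51B was above its 2 h level at 4 h in both lines and lowest at 12 h, while RAD54L was lower at each step; neither overlapped between 12 h and 2 h.

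All 5 genes of dissolution and resolution fell. EME1, the regulatory partner of the MUS81 nuclease (chr17:48450581-48458844, hg19), was at 10.3, 5.65, 2.82 and 1.42 FPKM in KYSE510 and 14.2, 6.55, 3.83 and 2.03 FPKM in TE7 after 2, 4, 6 and 12 h and changed by -2.28 ± 0.31 (SE; adjusted p = 0.00403). MUS81, which cuts joined molecules, was at 26.1, 15.5, 11.9 and 4.54 FPKM in KYSE510 and 27.7, 16.8, 12.2 and 6.05 FPKM in TE7 and changed by -2.16 ± 0.28 (SE; adjusted p = 0.00367). Both went down at every step in both lines, with no overlap of 12 h and 2 h. BLM, the helicase lost in Bloom syndrome, was at 6.28, 3.62, 2.12 and 1.21 FPKM in KYSE510 and 16.9, 10.2, 5.28 and 3.14 FPKM in TE7 over the hours and changed by -1.91 ± 0.30 (SE; adjusted p = 0.00580). TOP3A, the topoisomerase that works with BLM, was at 13.7, 11.0, 9.28 and 4.31 FPKM in KYSE510 and 23.2, 18.1, 12.3 and 7.25 FPKM in TE7 and changed by -1.51 ± 0.19 (SE; adjusted p = 0.00333). BLM and TOP3A likewise did not overlap. RMI1, the scaffold of that complex, was at 11.5, 6.83, 4.00 and 2.01 FPKM in KYSE510 and 14.3, 8.17, 6.75 and 8.01 FPKM in TE7 and changed by -1.41 ± 0.38 (SE; adjusted p = 0.0337). RMI1 in TE7 was higher at 12 h than at 6 h, while in KYSE510 it went down at each step.

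Of the 7 Fanconi core genes, 4 fell. FANCE, the subunit that contacts FANCD2 (chr6:35420138-35434880, hg19), was at 9.31, 6.75, 4.39 and 0.881 FPKM in KYSE510 and 8.03, 5.08, 2.63 and 1.30 FPKM in TE7 after 2, 4, 6 and 12 h and changed by -2.21 ± 0.33 (SE; adjusted p = 0.00519). FANCF, a small adaptor of the core (chr11:22644079-22647387, hg19), was low at every hour, at 2.95, 1.47, 0.909 and 0.370 FPKM in KYSE510 and 1.74, 0.766, 0.497 and 0.338 FPKM in TE7, and changed by -1.28 ± 0.28 (SE; adjusted p = 0.0168). FANCE and FANCF were lower at every step in both lines without overlap, and FANCF was under 1 FPKM in both lines from 6 h. FANCG, the partner of FANCA, was at 26.7, 26.7, 22.5 and 14.5 FPKM in KYSE510 and 68.0, 62.3, 48.5 and 28.6 FPKM in TE7 and changed by -1.03 ± 0.24 (SE; adjusted p = 0.0201). FANCC, which binds FANCE and FANCF, was at 10.4, 9.23, 9.06 and 5.73 FPKM in KYSE510 and 14.3, 13.9, 12.7 and 6.76 FPKM in TE7 and changed by -0.87 ± 0.19 (SE; adjusted p = 0.0169). FANCG at 12 h in TE7 lay above 2 h in KYSE510, and FANCC did not overlap. FANCL, the ubiquitin ligase, was at 24.4, 16.4, 12.6 and 14.0 FPKM in KYSE510 and 49.1, 35.7, 27.6 and 32.1 FPKM in TE7 and did not pass (-0.68, adjusted p = 0.199). FANCM, the DNA translocase that anchors the core, was at 4.04, 3.04, 2.51 and 1.74 FPKM in KYSE510 and 5.05, 4.73, 3.24 and 3.44 FPKM in TE7 and did not pass (-0.66, adjusted p = 0.128). Both were lower at 12 h than at 2 h in each line, with the lowest TE7 level at 6 h. FANCA, the core subunit most often mutated in Fanconi anemia, was at 35.9, 39.0, 41.6 and 36.9 FPKM in KYSE510 and 78.2, 78.3, 82.2 and 64.0 FPKM in TE7 and its change was -0.12 ± 0.33 (SE; adjusted p = 0.829). In KYSE510 the 12 h and 2 h values of FANCA lay within each other's deposited 95% bounds (34.8 to 39.0 FPKM at 12 h and 33.8 to 38.1 FPKM at 2 h). In TE7 its 12 h value was the lower one. FANCA was the most abundant core gene at each hour in both lines.

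Neither gene of the FANCD2 and FANCI pair, the target of the core complex, passed at 12 h against 2 h. FANCD2 was at 15.9, 14.7, 14.7 and 13.3 FPKM in KYSE510 and 22.3, 20.8, 18.2 and 11.8 FPKM in TE7 after 2, 4, 6 and 12 h, a difference of -0.55 ± 0.27 (SE; adjusted p = 0.187). FANCI was at 42.9, 38.5, 36.0 and 29.2 FPKM in KYSE510 and 111, 112, 99.6 and 64.9 FPKM in TE7, a difference of -0.65 ± 0.25 (SE; adjusted p = 0.106). Both were lower at 12 h in each line, FANCI with overlap between the lines, and both slopes were called (adjusted p = 0.0109 for FANCD2 and 0.000687 for FANCI, by limma); after median-of-ratios scaling neither slope was. FANCD2 was the only one of the 35 whose slope was called different between lines, by 0.067 log2 units per hour, KYSE510 minus TE7 (adjusted p = 0.0482, limma), where 3.57% of all genes were called in that direction and 2.56% in the other. The slope of FANCD2 was less negative in KYSE510 than in TE7; the call was lost after median-of-ratios scaling and without single libraries (0 to 3 genes called). Of the single-strand binding pair, which coat DNA at breaks, NABP1 was at 7.96, 3.42, 1.38 and 0.977 FPKM in KYSE510 and 5.14, 2.31, 1.80 and 2.59 FPKM in TE7, a difference of -1.48 ± 0.48 (SE; adjusted p = 0.0619) that did not pass. NABP1 was below 50% of its 2 h level by 4 h in both lines, without overlap of 12 h and 2 h, and was higher at 12 h than at 6 h in TE7. NABP2 was at 26.8, 26.5, 28.4 and 26.7 FPKM in KYSE510 and 48.8, 49.8, 46.5 and 41.0 FPKM in TE7 over the hours, a difference of -0.13 ± 0.22 (SE; adjusted p = 0.729), its groups overlapping.

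**Figure D3:**
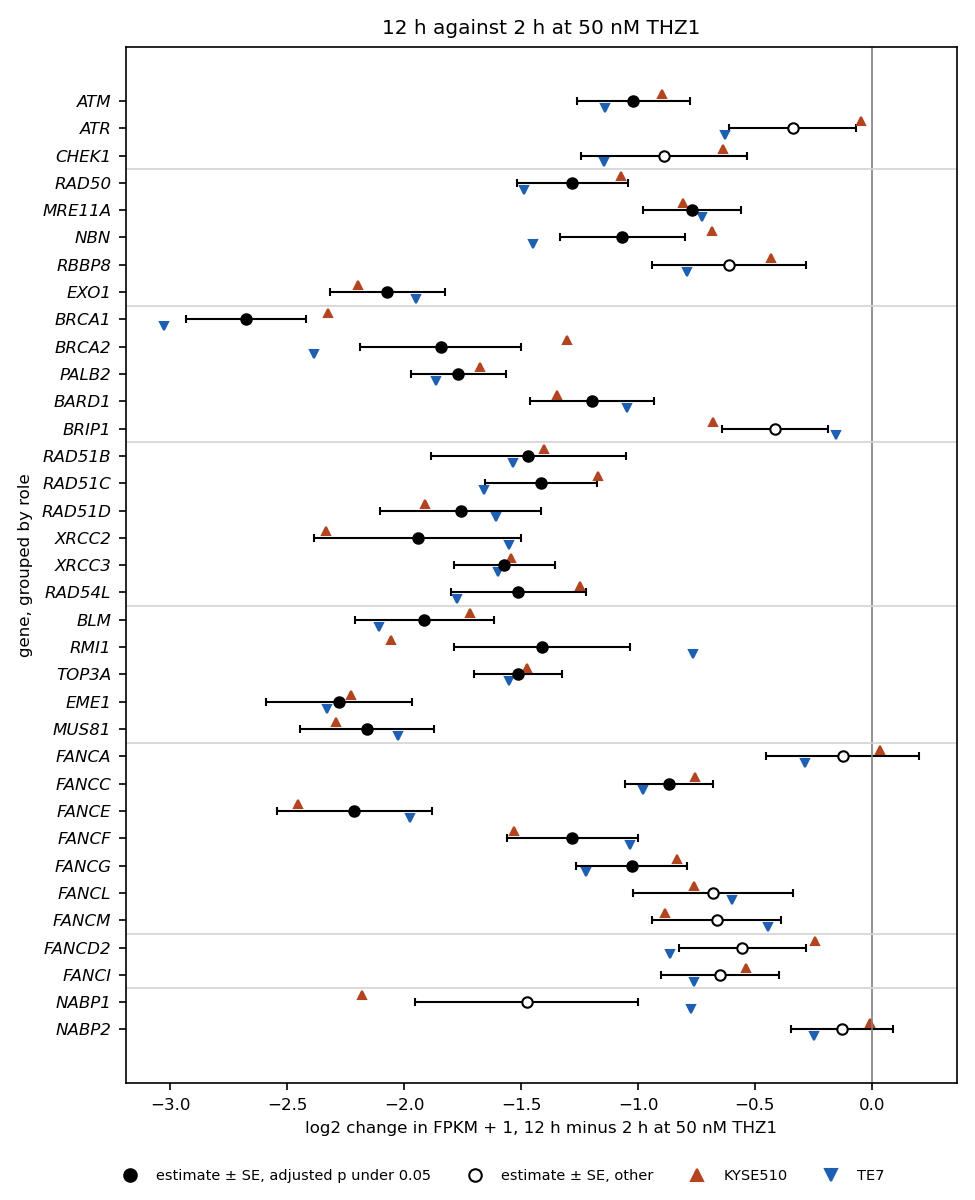
log2 change in FPKM + 1, 12 h minus 2 h at 50 nM THZ1, for the 35 genes grouped by role; circles are the limma estimates over both lines with SE, filled where adjusted p is under 0.05, and triangles are KYSE510 (up) and TE7 (down). BRCA1 lies farthest left at -2.68, and FANCA and NABP2 lie near 0.

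Hours at which the genes went down were set side by side for the 2 lines. Taking the first 50 nM hour at which the FPKM was at or under 50% of the 2 h level, 26 of 35 genes had the same hour, or none, in both lines. At 4 h these were XRCC2, FANCF and NABP1 in KYSE510, and EME1, FANCF and NABP1 in TE7. At 6 h BRCA2, BLM, RMI1, MUS81 and FANCE joined in both lines, with EME1 in KYSE510 and with BRCA1, XRCC2 and RAD54L in TE7. Another 13 genes in KYSE510 and 14 in TE7 first got there at 12 h, among them PALB2, BARD1, EXO1, RAD50, TOP3A, ATM and the paralogs RAD51B, RAD51C, RAD51D and XRCC3 in both. BRIP1, MRE11A, RBBP8, ATR, FANCA, FANCD2, FANCI, FANCL and NABP2 did not get there in either line. In all, 20 genes were lower at each hour than at the one before in both lines. The share of all genes was not computed for this count or for the 26. At or under 50% of the 2 h level were 3 of 35 genes in each line at 4 h, where 5.59% of all genes were in KYSE510 and 3.45% in TE7. With KYSE510 before TE7, 9 and 11 were at 6 h, against 13.5% and 11.7% of all genes. At 12 h 22 and 23 were, against 34.8% and 37.7%.

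Between 2 h and 12 h at 50 nM the longer genes of the set did not show the larger falls. The spans in the tables run from 3.31 kb for FANCF to 910.4 kb for RAD51B, with a median of 65.0 kb in the set and 24.0 kb over all genes tested. Across the 35 genes, which are not independent replicates and share libraries, Spearman's rho between span and the 12 h against 2 h change was 0.42 in KYSE510 and 0.22 in TE7, where a positive value means that longer genes changed less. At 4 h against 2 h rho was 0.34 in KYSE510 and 0.44 in TE7. Over all 15610 genes rho at 12 h was -0.10 in KYSE510 and -0.07 in TE7, and over 5778 protein-coding genes with a mean of 5 to 30 FPKM, a level like that of the set, it was 0.14 and 0.19 in those lines. Those numbers describe these libraries and carry no test.

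By span class, the 6 genes over 100 kb had a median change of -0.74 at 12 h against 2 h over both lines, the 19 genes of 30 to 100 kb -1.28, the 6 genes of 10 to 30 kb -1.67 and the 4 genes under 10 kb -1.15. For all genes the medians were -0.42, -0.47, -0.54 and -0.28 in the same classes. The longest gene, RAD51B, was an exception among the long ones, at -1.40 in KYSE510 and -1.54 in TE7, while RBBP8, FANCC, BRIP1, ATM and ATR lay between -1.02 and -0.34 over both lines. The hour at which 50% was reached ran with span too: the median span was 18.6 kb for the genes first at or under 50% at 4 h in KYSE510, 19.1 kb at 6 h, 47.2 kb at 12 h and 75.5 kb for those that did not get there, and 8.26, 31.1, 49.1 and 77.3 kb in TE7. From 6 h to 12 h rho was 0.26 in KYSE510 and -0.14 in TE7, so in TE7 the relation was seen at 4 h and 6 h and not in the later step. Between the doses at 6 h, 200 nM against 50 nM, it ran the other way, with a rho of -0.16 in KYSE510 and -0.19 in TE7. Over all genes that rho was -0.11 in KYSE510 and -0.06 in TE7. Over the protein-coding genes of 5 to 30 FPKM, a scope chosen after seeing the data, it was 0.08 in KYSE510 and 0.04 in TE7.

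**Figure D4:**
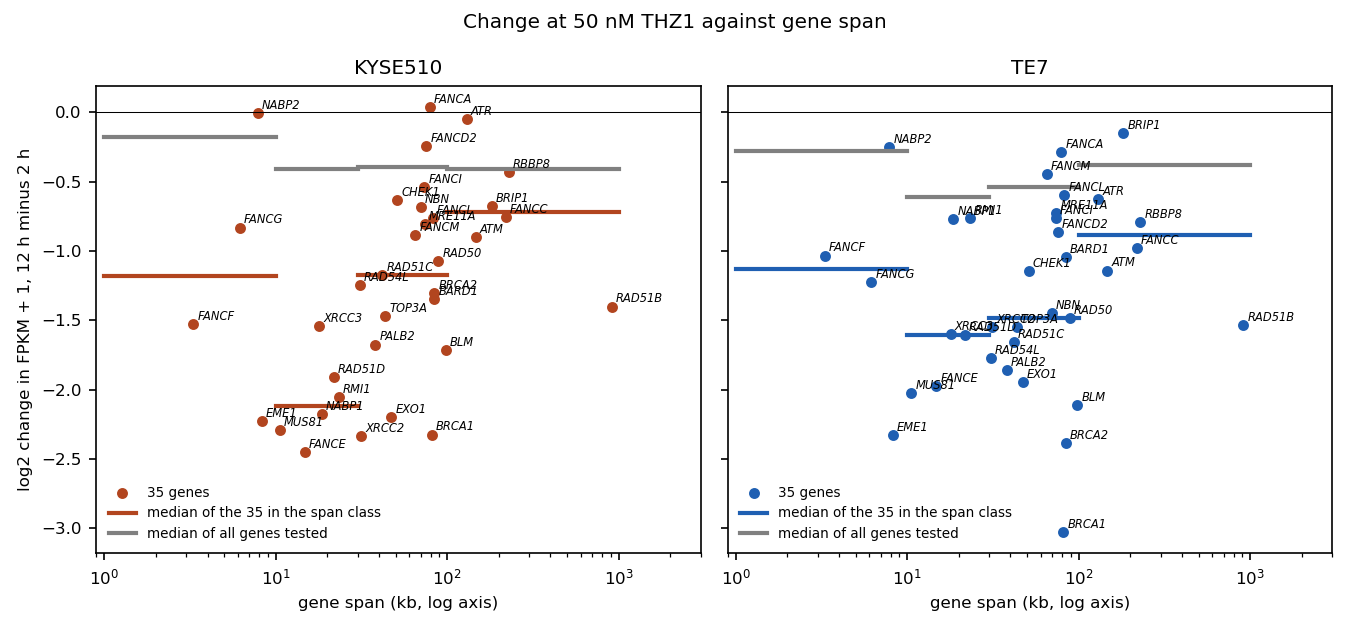
log2 change in FPKM + 1, 12 h minus 2 h at 50 nM THZ1, against gene span on a log axis, in KYSE510 (left) and TE7 (right); dots are the 35 genes, coloured bars their medians in 4 span classes and grey bars the medians of all genes tested. The set's bar over 100 kb lies above its bars at 10 to 30 kb and 30 to 100 kb in both lines.

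Against DMSO, calls grew with time. At 2 h 0 of 35 genes were called by limma in either direction, where 0.0% of all genes were lower and 0.0128% higher. An unadjusted p under 0.05 was reached by 5 of the 35 and by 1683 of all 15610 genes. At 4 h 0 were called by limma, where 0.0512% of all genes were lower and 0.0256% higher. The unadjusted p was under 0.05 for 7 of the 35 and for 2466 of all 15610 genes. At 6 h 4 of 35 fell and 0 rose, where 4.02% of all genes fell and 0.692% rose. The changes were -2.83 ± 0.48 (SE; adjusted p = 0.0243) for NABP1, -2.19 ± 0.30 (SE; adjusted p = 0.0184) for BLM, -1.92 ± 0.28 (SE; adjusted p = 0.0188) for FANCF and -1.69 ± 0.31 (SE; adjusted p = 0.0302) for EME1. At 12 h 22 fell and 0 rose, where 25.2% of all genes fell and 3.27% rose, with a median of -1.29 in the set and -0.42 in all genes, and both 12 h libraries lay below both DMSO libraries for 23, against 39.5% of all genes. Without the 2 libraries that stood apart, the DMSO level rested on TE7 alone, and 0, 5, 13 and 30 genes were lower at 2, 4, 6 and 12 h, where 0.685%, 8.14%, 19.8% and 43.9% of all genes were. The 5 at 4 h were EME1, FANCF, BLM, MUS81 and FANCL. Without any 1 of the 2, 4 or 6 h libraries of either line the 4 calls at 6 h became 0, and without either 200 nM library 10; without TE7 at 12 h the 22 calls at 12 h became 14. After median-of-ratios scaling 16 fell and FANCA rose at 12 h, where 12.7% of all genes fell and 9.45% rose.

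In TE7, whose DMSO library matched its line, 34 of 35 genes were lower at 12 h than in DMSO, where 73.8% of all genes were, at a median of 36.1% of the DMSO level. BRCA1 was at 2.16 FPKM at 12 h and 29.3 FPKM in DMSO, EME1 at 2.03 FPKM at 12 h and 20.9 FPKM in DMSO, and BLM at 3.14 FPKM at 12 h and 20.8 FPKM in DMSO. These 3 had the largest differences from DMSO in TE7 on the log2(FPKM + 1) scale. RAD54L had 5.87 FPKM at 12 h against 27.7 FPKM in DMSO, and RAD51C 12.0 FPKM at 12 h against 42.8 FPKM in DMSO. BRIP1 alone was above DMSO, at 8.22 FPKM at 12 h and 7.78 FPKM in DMSO. NABP1 and FANCF were lower already at 2 h in TE7: NABP1 had 5.14 FPKM at 2 h against 11.6 FPKM in DMSO, and FANCF 1.74 FPKM at 2 h against 3.35 FPKM in DMSO. No gene could be tested on these single libraries.

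In KYSE510, DMSO values come from the library that stood apart. There BRCA1 was at 2.53 FPKM at 12 h and 17.5 FPKM in the library labelled DMSO, and BLM at 1.21 FPKM at 12 h and 17.9 FPKM in that library. Of the 35 genes, 31 were lower at 12 h than in that library, where 60.9% of all genes were. RAD51B was at 22.1 FPKM at 2 h against 9.36 FPKM in the library labelled DMSO, FANCA at 35.9 FPKM at 2 h against 16.3 FPKM in it, and NABP1 at 7.96 FPKM at 2 h against 25.7 FPKM in it. Differences of that size at 2 h had no counterpart for RAD51B and FANCA in TE7, where the 2 h and DMSO libraries held 16.0 and 17.2 FPKM of RAD51B, and 78.2 and 65.6 FPKM of FANCA. The share of the library labelled KYSE510 DMSO in such differences was not tested.

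At 200 nM for 6 h 17 of 35 genes fell against DMSO and 0 rose, where 35.3% of all genes fell and 3.22% rose. The median of the set against that of all genes depended on the libraries used: it was -0.74 against -0.65 with all libraries, and -1.01 against -0.71 without the 2 that stood apart. Over protein-coding genes alone, with all libraries, the median was -0.73 and 40.7% fell. Both 200 nM libraries lay below both DMSO libraries for 22 genes, against 47.3% of all genes. Without those 2, 22 fell, where 52.8% of all genes fell. These calls set 1 TE7 library against 1, which are assumed to vary like the libraries of the other conditions. After median-of-ratios scaling 7 fell and 4 rose (MRE11A, XRCC3, ATM and FANCA), where 13.2% of all genes fell and 12.0% rose. Lost there, and after upper-quartile scaling, were the calls of ATR, BARD1, BRCA1, FANCL, MUS81, NABP1, NBN, RAD51B, RAD51C and TOP3A. As a comparison, 12 of 12 genes of G2 and mitosis fell at 200 nM against DMSO on the FPKM scale, with a median of -2.50.

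Within the set the 200 nM libraries split the genes. All 5 of dissolution and resolution fell on the FPKM scale, though MUS81 and TOP3A were not called after median-of-ratios scaling. RMI1 changed by -2.46 ± 0.38 (SE; limma adjusted p = 0.00221). It was at 2.09 FPKM in the library labelled KYSE510 200 nM and 1.88 FPKM in TE7 at 200 nM, against 13.9 and 17.2 FPKM in the DMSO libraries of those lines. FANCE changed by -2.43 ± 0.33 (SE; adjusted p = 0.00144), with 0.709 and 1.63 FPKM at 200 nM against 12.7 and 8.50 FPKM in DMSO, KYSE510 given before TE7. PALB2 changed by -1.90 ± 0.20 (SE; adjusted p = 0.000660), with 1.52 and 4.02 FPKM at 200 nM against 8.68 and 17.2 FPKM in DMSO in the same order of lines. In these 3 genes both 200 nM libraries lay below both DMSO libraries. ATM was at 7.01 and 12.4 FPKM at 200 nM and 4.72 and 10.9 FPKM in DMSO, and XRCC3 at 20.5 and 56.7 FPKM at 200 nM and 16.2 and 60.1 FPKM in DMSO. Neither passed on the FPKM scale, with 0.33 for ATM (adjusted p = 0.306, limma) and 0.12 for XRCC3 (adjusted p = 0.687, limma). BRCA1 changed by -1.25 ± 0.26 (SE; adjusted p = 0.00725), with 6.70 and 11.8 FPKM at 200 nM against 17.5 and 29.3 FPKM in DMSO.

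The DMSO and 200 nM levels of the other genes are given here with KYSE510 before TE7, the KYSE510 values being those of the libraries that stood apart. In dissolution and resolution, BLM was at 1.66 and 5.09 FPKM at 200 nM against 17.9 and 20.8 FPKM in DMSO, EME1 was at 1.93 and 2.23 FPKM at 200 nM against 7.75 and 20.9 FPKM in DMSO, MUS81 was at 8.09 and 12.3 FPKM at 200 nM against 13.0 and 28.8 FPKM in DMSO and TOP3A was at 5.68 and 8.41 FPKM at 200 nM against 13.9 and 22.2 FPKM in DMSO. These 4 fell at 200 nM (-2.33 for BLM, -2.17 for EME1, -0.90 for MUS81 and -1.23 for TOP3A), and none overlapped. Among the resection genes, EXO1 was at 4.72 and 5.41 FPKM at 200 nM against 18.5 and 23.5 FPKM in DMSO, NBN was at 6.06 and 6.61 FPKM at 200 nM against 15.8 and 16.3 FPKM in DMSO, RAD50 was at 12.4 and 12.3 FPKM at 200 nM against 18.1 and 12.8 FPKM in DMSO, MRE11A was at 14.6 and 22.7 FPKM at 200 nM against 11.5 and 29.7 FPKM in DMSO and RBBP8 was at 26.5 and 32.4 FPKM at 200 nM against 33.0 and 33.1 FPKM in DMSO. EXO1 (-1.85) and NBN (-1.22) fell without overlap, while RAD50 and RBBP8 were lower without overlap and did not pass, and MRE11A overlapped. In the BRCA complex, BARD1 was at 2.10 and 3.77 FPKM at 200 nM against 10.4 and 8.64 FPKM in DMSO, BRCA2 was at 2.50 and 2.74 FPKM at 200 nM against 3.04 and 7.33 FPKM in DMSO and BRIP1 was at 3.07 and 5.40 FPKM at 200 nM against 3.96 and 7.78 FPKM in DMSO; BARD1 fell (-1.44), BRCA2 did not overlap but did not pass, and BRIP1 overlapped. Of the paralogs, RAD51B was at 3.09 and 6.41 FPKM at 200 nM against 9.36 and 17.2 FPKM in DMSO, RAD51C was at 13.0 and 13.5 FPKM at 200 nM against 28.8 and 42.8 FPKM in DMSO, RAD51D was at 4.50 and 11.1 FPKM at 200 nM against 4.81 and 12.1 FPKM in DMSO, XRCC2 was at 9.59 and 4.12 FPKM at 200 nM against 6.95 and 7.46 FPKM in DMSO and RAD54L was at 10.3 and 12.2 FPKM at 200 nM against 13.6 and 27.7 FPKM in DMSO. RAD51B (-1.32) and RAD51C (-1.34) fell; RAD51D and XRCC2 overlapped, and RAD54L did not but did not pass.

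In the Fanconi core, FANCF was at 0.986 and 0.599 FPKM at 200 nM against 8.38 and 3.35 FPKM in DMSO, FANCL was at 13.2 and 11.9 FPKM at 200 nM against 21.3 and 58.0 FPKM in DMSO, FANCA was at 21.3 and 83.7 FPKM at 200 nM against 16.3 and 65.6 FPKM in DMSO, FANCC was at 6.88 and 8.63 FPKM at 200 nM against 9.37 and 11.8 FPKM in DMSO, FANCG was at 22.5 and 39.2 FPKM at 200 nM against 20.4 and 67.0 FPKM in DMSO and FANCM was at 3.32 and 5.56 FPKM at 200 nM against 2.69 and 7.64 FPKM in DMSO. FANCF (-1.84) and FANCL (-1.42) fell without overlap; FANCC was lower without overlap and did not pass, and FANCA, FANCG and FANCM overlapped. Of the core complex's targets, FANCD2 was at 18.9 and 14.6 FPKM at 200 nM against 16.2 and 24.6 FPKM in DMSO and FANCI was at 42.7 and 74.0 FPKM at 200 nM against 58.7 and 92.5 FPKM in DMSO, both with overlap. Of the single-strand binding pair, NABP1 was at 2.90 and 5.56 FPKM at 200 nM against 25.7 and 11.6 FPKM in DMSO and NABP2 was at 43.8 and 47.3 FPKM at 200 nM against 38.2 and 63.7 FPKM in DMSO; NABP1 fell (-1.86), a call that was lost without the 2 libraries that stood apart, and NABP2 overlapped. Of the kinases, ATR was at 4.54 and 6.01 FPKM at 200 nM against 11.2 and 10.2 FPKM in DMSO and CHEK1 was at 20.4 and 20.4 FPKM at 200 nM against 15.4 and 52.5 FPKM in DMSO; ATR fell (-0.90), while CHEK1 overlapped. ATR was thus called at 200 nM against DMSO and at no comparison of the 50 nM hours. When 200 nM was set against 50 nM at 6 h, ATR did not pass. The ATR call against DMSO was lost after median-of-ratios, upper-quartile and equal-sum scaling, and without the filter on low values.

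The doses were set against each other at 6 h. By limma 7 of 35 genes were lower at 200 nM than at 50 nM and 0 higher, where 21.9% of all genes were lower and 2.94% higher, so the share of the set was near the background. EXO1 changed by -1.86 ± 0.25 (SE; adjusted p = 0.00225), PALB2 by -1.73 ± 0.20 (SE; adjusted p = 0.00150), RAD51B by -1.63 ± 0.42 (SE; adjusted p = 0.0258) and NBN by -1.33 ± 0.27 (SE; adjusted p = 0.0106). RAD51C, BRIP1 and BARD1 were the other 3. PALB2 in TE7 had 4.02 FPKM at 200 nM and 17.1 FPKM at 50 nM, and EXO1 had 5.41 FPKM at 200 nM and 16.9 FPKM at 50 nM. XRCC2 ran the other way, with 9.59 FPKM in the library labelled KYSE510 200 nM and 4.12 FPKM in TE7 at 200 nM, against 1.51 and 2.96 FPKM at 50 nM in those lines, but did not pass (adjusted p = 0.0801, limma). Without the 2 libraries that stood apart, which leaves 1 library at 200 nM, 13 were lower and NABP1 and RAD51D higher, where 6245 of all 15610 genes were lower and 1456 higher. The direction of this comparison turned with scaling: after median-of-ratios scaling 2 were lower, EXO1 and PALB2, and 5 higher, where 8.62% of all genes were lower and 9.82% higher. With equal sums of FPKM 2 were lower and 4 higher, where 9.02% of all genes were lower and 6.23% higher, with a median of 0.20 in the set and -0.12 in all genes. Without KYSE510 or TE7 at 50 nM for 6 h the 7 lower calls became 2, and without TE7 at 200 nM there were 10 lower and 3 higher.

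**Figure D5:**
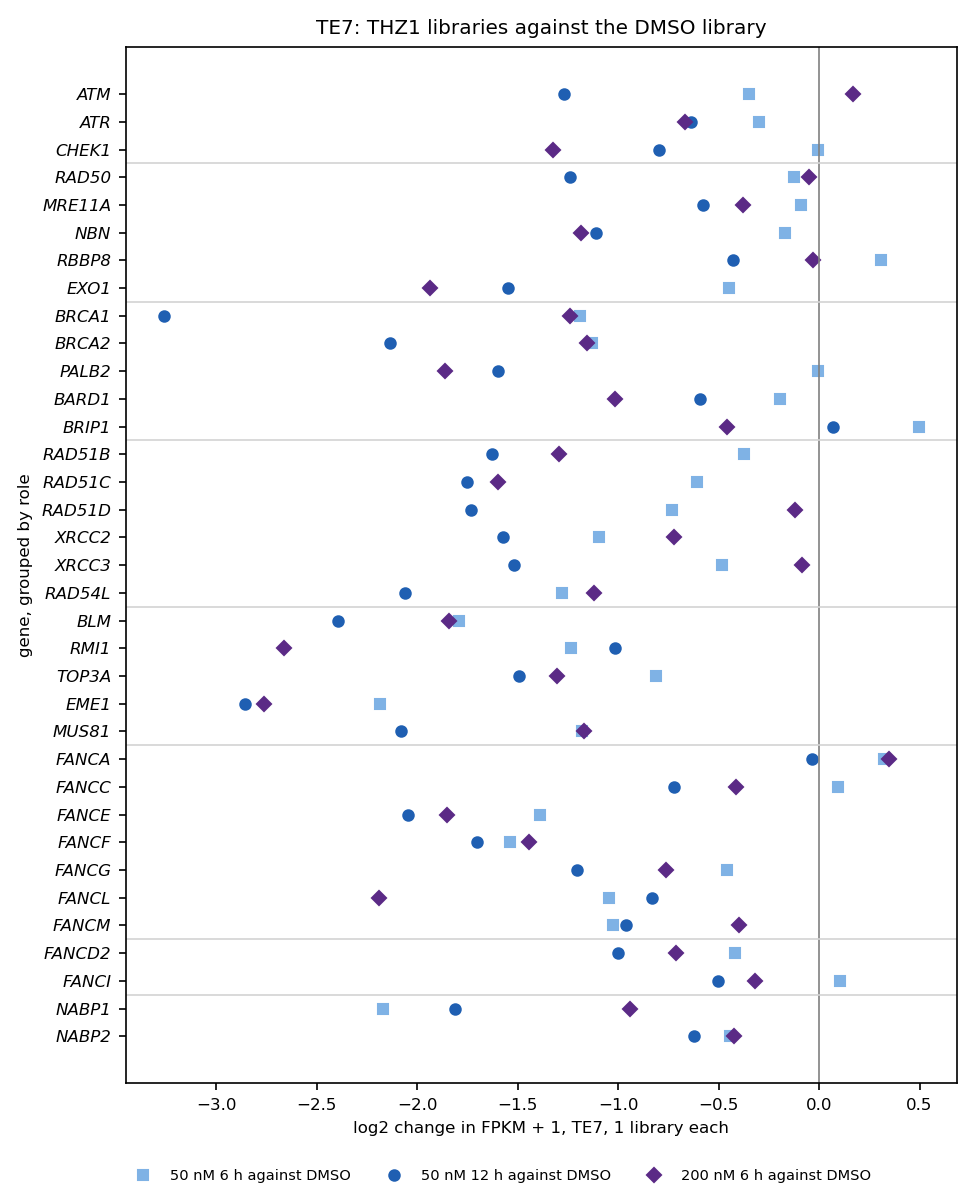
log2 change in FPKM + 1 against the TE7 DMSO library for the 35 genes grouped by role, in the TE7 libraries at 50 nM for 6 h (squares), 50 nM for 12 h (circles) and 200 nM for 6 h (diamonds), 1 library each. BRCA1 lies farthest left at 12 h of 50 nM, while ATM, XRCC3, RAD51D and RBBP8 at 200 nM lie near 0.

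The 2 lines differed in the level of the set. In this comparison the 6 conditions, with 1 library per line each, stood in as replicates of the line. Its p-values do not measure spread among separate cultures of a line. Over the 6 conditions, on the FPKM scale, 17 of 35 genes were lower in KYSE510 than in TE7 and 1, FANCF, was higher, where 28.9% of all genes were lower in KYSE510 and 17.5% higher. XRCC3 had the largest difference, -1.88 ± 0.13 (SE; adjusted p = 8.97e-05). It was followed by FANCA with -1.28 ± 0.19 (SE; adjusted p = 0.00172), FANCG with -1.16 ± 0.14 (SE; adjusted p = 0.000743) and FANCI with -1.14 ± 0.15 (SE; adjusted p = 0.00101). At 2 h of 50 nM, XRCC3 was at 14.3 FPKM in KYSE510 and 63.8 FPKM in TE7, and FANCI at 42.9 FPKM in KYSE510 and 111 FPKM in TE7. XRCC3, FANCA, FANCG and FANCI were lower in KYSE510 in every condition. With FPKM scaled to equal sums 10 were lower and 4 higher (RBBP8, NBN, ATR and FANCF), where 16.8% of all genes were lower and 28.6% higher. The median of the set was then -0.18 in place of -0.48, and that of all genes 0.15 in place of -0.14. FANCF was higher in KYSE510 by 0.47 ± 0.16 (SE; adjusted p = 0.0442). Without the 2 libraries that stood apart 20 were lower and 5 higher in KYSE510, where 39.2% of all genes were lower and 29.2% higher; BRCA1 was no longer called, and RBBP8, NBN, ATR and RAD51B joined FANCF among the higher ones. The lines also differ in their medium, which cannot be told apart from the line.

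Of the kinases that THZ1 binds, CDK12 fell as well, by limma (12 h against 2 h, log2 change -1.34 ± 0.22 SE, adjusted p = 0.00731). It was at 23.9, 23.1, 23.7 and 10.6 FPKM in KYSE510 and 17.5, 16.6, 13.2 and 5.22 FPKM in TE7 after 2, 4, 6 and 12 h at 50 nM, with the drop between 6 h and 12 h. CDK7 was at 23.7, 25.2, 24.6 and 13.8 FPKM in KYSE510 and 24.1, 24.6, 22.3 and 11.3 FPKM in TE7, and CDK13 at 11.5, 9.15, 6.93 and 5.72 FPKM in KYSE510 and 8.55, 6.02, 4.36 and 6.56 FPKM in TE7. Neither passed at 12 h against 2 h (adjusted p = 0.123 for CDK7 and 0.117 for CDK13, limma). The slope at 50 nM was called for CDK7 (-0.097 log2 units per hour, limma adjusted p = 0.00116) and not for CDK13 (adjusted p = 0.101). At 200 nM against DMSO, CDK7 (-2.16, limma adjusted p = 0.00317) and CDK13 (-1.16, adjusted p = 0.00848) fell, where 35.3% of all genes fell. CDK12 did not pass there (-0.63, adjusted p = 0.0570). Of 46 other recombination and crosslink repair genes, from a list written with earlier results of these data known, 23 fell and 1 rose at 12 h against 2 h, with a median of -0.99. In other repair pathways 6 of 10 end joining genes fell (median -1.14), 5 of 7 mismatch repair genes (-1.45), 6 of 12 base excision repair genes (-0.90) and 4 of 16 nucleotide excision repair genes (-0.56). Of 14 S phase genes 6 fell (-0.82), and of 12 genes of G2 and mitosis 3 did (-0.72). Differences between lists were not tested, and the 20.0% of all genes that fell is the background for each count.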

How the data were processed

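RNA-seq libraries from 2 cell lines under 6 conditions were compared. Values are FPKM (fragments scaled to transcript length and library size) with confidence bounds per gene, as the authors deposited them; the submitters' processing notes name STAR, Cufflinks and hg19, whose versions were not named there. Depth in reads is therefore unknown. Values of 108 identifiers with more than 1 locus were added up. From the deposited FPKM, log2(FPKM + 1) was computed for genes at or above 1 FPKM in at least 2 libraries and fitted with limma 3.58.1 (R 4.3.3), with condition and cell line as terms, a variance trend, two-sided tests and Benjamini-Hochberg adjustment over all genes. Samples were paired by cell line, and over 15 pairs of conditions same-line deviations correlated at 0.317 to 0.959. The pairs that held 200 nM lay at 0.317 to 0.391. The slope used the 8 libraries at 50 nM. The procedure was tested on simulated data.

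Every gene of the set is named or counted in its role; those past the threshold, and BRCA1, BRCA2, ATM, ATR, CHEK1, NABP1, NABP2 and FANCD2, are given in every library. The set, lists and alternatives were chosen with earlier results of these data known. Gene types came from GENCODE 29.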

Additional observations from a re-analysis of the deposited data

Results flagged for a closer look

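The slope of FANCD2 over the hours at 50 nM was less negative in KYSE510 than in TE7, by 0.067 log2 units per hour (limma, adjusted p = 0.0482). It was the only 1 of the 35 genes called, where 3.57% of all genes were called in that direction and 2.56% in the other. FANCD2 was at 15.9, 14.7, 14.7 and 13.3 FPKM in KYSE510 and 22.3, 20.8, 18.2 and 11.8 FPKM in TE7 after 2, 4, 6 and 12 h. The call was lost with median-of-ratios and upper-quartile scaling, with a pseudocount of 0.1 FPKM, without the filter on low values and without the variance trend. It was also lost without any 1 of the 50 nM libraries other than TE7 at 2 h.

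The 12 h minus 2 h difference of FANCA had opposite signs in the lines, 0.037 in KYSE510 and -0.29 in TE7 on the log2(FPKM + 1) scale. In KYSE510 the 2 values lay within each other's deposited bounds, so no change is shown there, and over both lines FANCA did not pass (-0.12, limma adjusted p = 0.829). The difference between these 2 values was not tested on its own; the slope difference of FANCA was not called.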

How the results depend on the processing

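Counts of called genes among the 35 moved with scaling and with single libraries. With a pseudocount of 5 FPKM, 7 genes were called at 6 h against DMSO and 2 slopes differed between lines; with 0.1 FPKM 0 slopes differed. Without the filter on low values these counts were 2 and 0. Median-of-ratios scaling gave 11 calls at 200 nM against DMSO (7 lower, 4 higher), 7 at 200 nM against 50 nM (2 lower, 5 higher, in place of 7 lower), 13 at 12 h against 2 h and 0 slope differences; upper-quartile scaling gave 7 (2 lower, 5 higher), 13 and 0 for the last 3 of these. Equal sums of FPKM turned the 7 lower calls at 200 nM against 50 nM into 6, of which 2 lower and 4 higher, gave 10 lower and 4 higher between lines in place of 17 and 1, and gave 3 slope differences, and a variance without trend gave 0 slope differences. The slope of BRIP1 turned to 2.64e-05 log2 units per hour after median-of-ratios and 0.00175 after upper-quartile scaling. With no replicate block, so that the pairing by line was ignored, calls were 0 at 6 h, 12 at 12 h and 10 at 200 nM, each against DMSO, 3 at 200 nM against 50 nM, 7 at 12 h against 2 h, and 17 slopes. Leaving out the 2 KYSE510 libraries that stood apart, chosen after seeing the data, gave 5 calls at 4 h and 13 at 6 h against DMSO and 15 at 200 nM against 50 nM (13 lower, 2 higher); leaving out the TE7 library at 200 nM too gave 5 and 13 at 4 h and 6 h. Leaving out 1 library at a time gave 0 to 2 calls at 2 h, 0 to 3 at 4 h, 0 to 10 at 6 h, 14 to 25 at 12 h and 13 to 16 at 200 nM against DMSO, 2 to 13 at 200 nM against 50 nM (the 13 being 10 lower and 3 higher), 4 to 27 at 12 h against 2 h, 14 to 21 between lines, 28 to 31 slopes and 0 to 3 slope differences. The 4 calls at 6 h against DMSO were 0 without any 1 of the 2, 4 or 6 h libraries of either line and 10 without either 200 nM library. The 24 calls at 12 h against 2 h were 7 without KYSE510 at 2 h, 4 without TE7 at 2 h, 16 without KYSE510 at 12 h and 10 without TE7 at 12 h, each leaving 1 library in that condition, assumed to vary like the others. Spearman's rho between span and the 12 h against DMSO change was 0.433, and 0.482 with a pseudocount of 5 FPKM, 0.376 in TE7 alone, 0.373 with 2 h as baseline and 0.101 over protein-coding genes of 5 to 30 FPKM, a scope chosen after seeing the data. The causes of these shifts were not tested, other than that fits with fewer libraries have fewer degrees of freedom. Without read counts, counting error enters only through the deposited bounds.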
